A study of Mus musculus with 16 samples.

Results

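The matrix metalloproteinases (MMPs), the ADAMTS proteases, the ADAMTS-like proteins and the tissue inhibitors of metalloproteinases (TIMPs) were followed in healing mouse skin wounds with and without mechanical load. Members were taken by name: every probe set whose only gene symbol was Mmp, Adamts, Adamtsl or Timp followed by a number. This gave 76 probe sets of 40 genes among 34945 probe sets with 1 gene symbol, which name 18193 genes. They comprised 27 probe sets of 16 Mmp genes, 28 of 15 Adamts genes, 8 of 5 Adamtsl genes and 13 of 4 Timp genes. No filter on low values was applied, so all 76 were tested. For 19 genes there was 1 probe set, and for the other 21 the most variable probe set stands for the gene unless another is named.

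RNA came from dorsal incisional wounds of wild-type C57BL/6 mice, labelled female and of an age not given in the labels, in a murine model of hypertrophic scarring. Unstressed wounds carried no load, and stressed wounds had been loaded for 48 hours when harvested on day 6 or for 10 days when harvested on day 14. Each of these 4 groups held 4 Affymetrix arrays; per the series design, the mice numbered 4 for each condition at each time. Values are centred log signals read as log2: the authors centred each probe set, so 0 is not an absolute level, detection cannot be judged, and only differences between arrays are read. The log base is not stated, and a natural log would make every difference larger than printed. For the same reason the presence of skin cell types could not be checked from absolute marker levels. The samples are pieces of whole tissue, in which fewer cells of a type and less RNA per cell cannot be told apart.

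One feature of the arrays touches every day 14 result. Replicates 3 and 4 of both day 14 groups had a mean Xist signal of 4.38 to 5.39 and a low signal of 3 Y-linked genes, whereas the other 12 arrays had an Xist signal of -0.38 to 0.52 and a higher Y-linked signal, against their label. Both day 14 groups hold 2 arrays of each class, and day 14 differences are therefore also given within each class. Arrays of day 14 were also wider in spread: the SD of all probe sets on an array was 0.54 to 0.79 at day 14 and 0.27 to 0.43 at day 6. Replicates of a group also differed more at day 14: the median residual SD of the members was 0.47, against 0.31 at day 6. Over all probe sets it was 0.26 and 0.20. The tests share 1 spread over both days, so SE and p tend to be too small at day 14 and too large at day 6. The number of arrays limits the precision.

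MMPs are zinc-dependent endopeptidases that cleave collagens, elastin, proteoglycans and many secreted signals, and most are made as inactive proenzymes. ADAMTS proteases carry thrombospondin repeats and cleave hyalectans such as versican and aggrecan, procollagen ends or microfibril components, while ADAMTS-like proteins share the repeats and lack the protease domain. TIMPs bind the active site of these enzymes, and in skin wounds the balance of the families bears on granulation tissue turnover, re-epithelialization and scar remodelling.

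Several Mmp genes lie next to each other on mouse chromosome 9. In the RefSeq order this run holds 10 genes, Mmp13, Mmp12, Mmp1b, Mmp3, Mmp1a, Mmp10, Mmp8, Mmp27, Mmp20 and Mmp7, of which 7 are members here (Mmp1a and Mmp1b end in a letter and are counted with a related list, and Mmp27 is not analysed here). The promoters of 6 of them are shown. A binding motif of the AP-1 transcription factors close to the start site is a known feature of inducible MMP promoters, and 5 were chosen because they hold its letters. That of Mmp8 is shown as 1 without the letters, and that of Mmp20, also without them, is left out. Each line gives the 100 bases that end just before the RefSeq transcription start on the plus strand of GRCm38.p6, 5′ to 3′, with the letters TGAGTCA or TGACTCA in capitals where they occur. Either 7-letter word is the reverse complement of the other, so that both strands are covered.
Mmp13 (chr9:7272414-7272513): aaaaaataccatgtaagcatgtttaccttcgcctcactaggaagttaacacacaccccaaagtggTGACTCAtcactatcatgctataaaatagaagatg
Mmp12 (chr9:7347274-7347373): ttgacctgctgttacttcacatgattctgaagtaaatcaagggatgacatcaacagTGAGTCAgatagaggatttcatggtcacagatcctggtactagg
Mmp3 (chr9:7445722-7445821): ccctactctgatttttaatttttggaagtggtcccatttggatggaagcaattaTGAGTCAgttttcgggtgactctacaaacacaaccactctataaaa
Mmp10 (chr9:7502242-7502341): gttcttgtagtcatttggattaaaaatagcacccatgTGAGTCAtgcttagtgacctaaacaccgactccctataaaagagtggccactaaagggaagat
Mmp7 (chr9:7691990-7692089): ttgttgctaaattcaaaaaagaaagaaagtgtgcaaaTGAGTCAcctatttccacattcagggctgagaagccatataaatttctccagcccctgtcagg
Mmp8 (chr9:7558329-7558428): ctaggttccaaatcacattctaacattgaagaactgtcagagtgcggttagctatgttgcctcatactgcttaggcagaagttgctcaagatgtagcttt

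The motif began 35 bases before the start in Mmp13, 44 in Mmp12, 46 in Mmp3 and 63 in both Mmp10 and Mmp7. For Mmp12 and Mmp7, which have 2 annotated starts each, it was found at the start shown and not at the other. In windows from 250 bases before to 50 bases after the start, 5 of 28 member promoters (17.9%), belonging to 25 genes with an entry, held the motif, against 1709 of 32851 promoters of all genes (5.20%). All 5 lie in the chromosome 9 run, and neither Mmp8 nor Mmp20 of that run held the letters in this window. A match in these letters is a description of the sequence, not a measured site.

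At day 14, after 10 days of loading, 25 of the 76 probe sets differed between stressed and unstressed wounds at an adjusted p of 0.05 or less, 21 higher and 4 lower with load. The adjusted p is limma's moderated test with Benjamini-Hochberg adjustment over all 34945 probe sets, of which 7.35% passed in this comparison (3.31% higher and 4.04% lower). The probe sets that rose belonged to 14 genes: Mmp2, Mmp3, Mmp11, Mmp12, Mmp13, Mmp14, Mmp19, Mmp23, Adamts4, Adamts10, Adamts15, Adamts16, Timp1 and Timp2. Those that fell belonged to Timp4, Adamtsl4 and Adamtsl5. The median difference was 0.42 over the 76 members and 0.01 over all probe sets, and 60 members lay above 0.

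The count changed with the setting, and the cause of the changes was not tested. With the 8 day 14 arrays alone 3 members passed (Timp1, Mmp3 and Timp4, against 0.349% of all probe sets). After quantile normalization 7 passed, 4 higher and 3 lower, against 1.04%. Without stressed replicate 2 the count was 15, against 2.71%. A fit of the low Xist arrays, which keeps all day 6 arrays and 2 arrays of each day 14 group, gave 33 members (24 higher, 9 lower) against 18.7% of all probe sets. With only the high Xist arrays at day 14, again beside all day 6 arrays, the count was 18 (17 higher, 1 lower) against 2.29%. In both fits the estimate of spread rests mainly on the day 6 arrays, so neither is a replication within day 14. With the Xist class as a block the count was 34 (29 higher, 5 lower) against 11.7%, while a block on replicate number gave 27 (23 higher, 4 lower) against 6.26%.

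**Figure D1:**
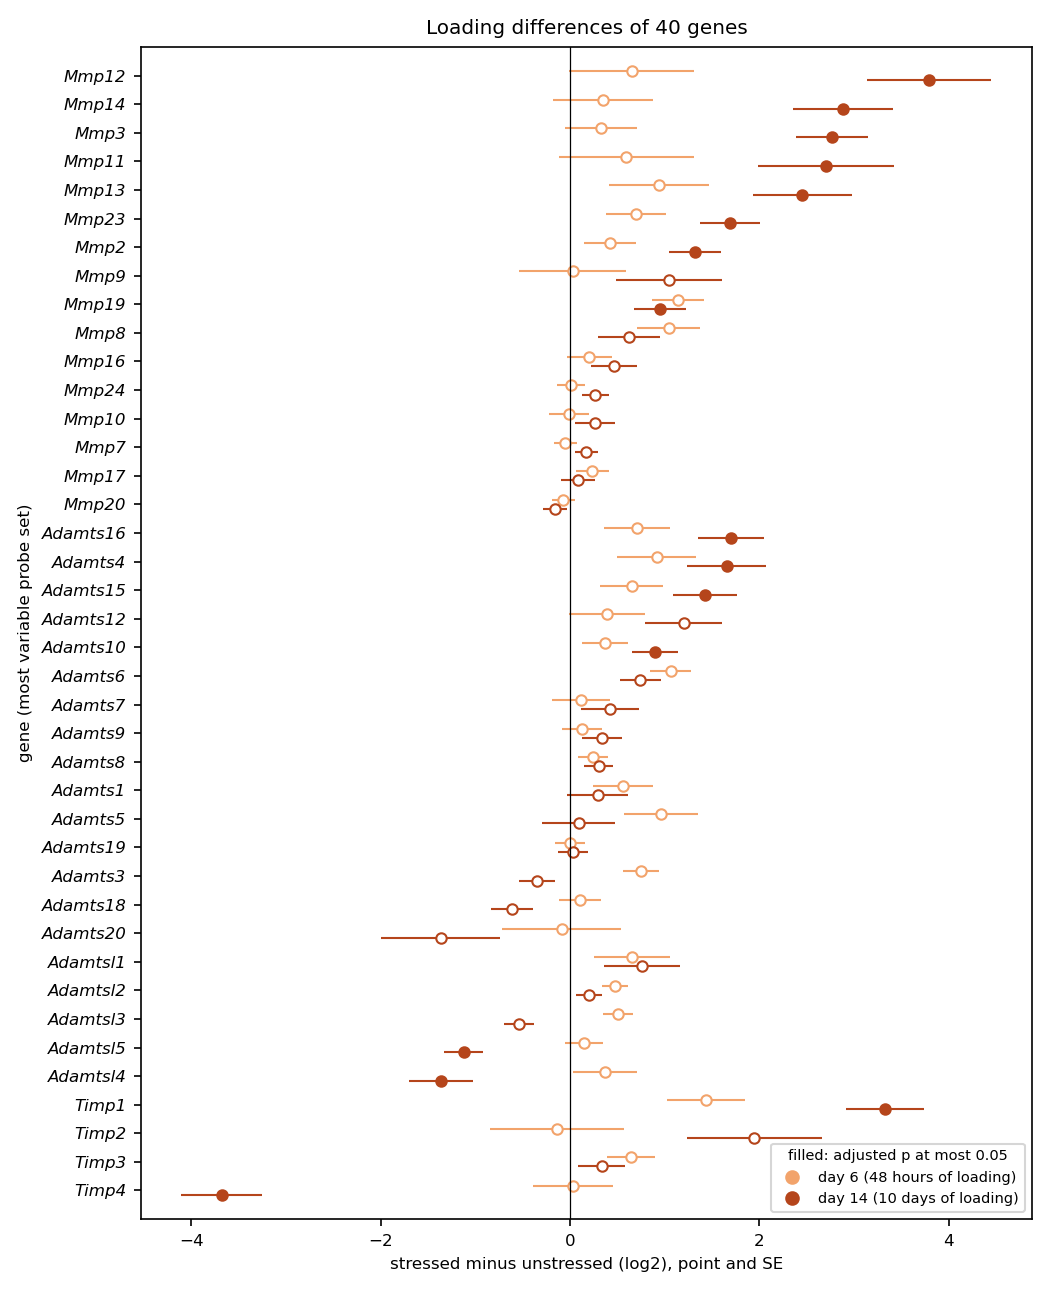
Difference between stressed and unstressed wounds for all 40 genes (most variable probe set), on the log2 scale with its SE, at day 6 and at day 14. Filled points passed an adjusted p of 0.05. At day 14 Mmp12 (3.79), Timp1 (3.33) and Timp4 (-3.68) lie farthest from 0, and at day 6 no point is filled.

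Among the MMPs, 13 of 27 probe sets rose at day 14 and none fell. Mmp12, the macrophage elastase, gave -3.61, -3.96, -3.61 and -3.82 on the unstressed arrays (replicates 1 to 4) and 2.32, -1.41, -0.74 and 0.0052 on the stressed arrays. The unstressed arrays lay close together and below every stressed array, whose own values were spread widely. The difference was 3.79 (SE 0.66, adjusted p = 0.0044), a 13.8-fold change if the base is 2, and it was 4.24 in the low Xist and 3.34 in the high Xist arrays.

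Mmp13, the main interstitial collagenase of rodents, gave -4.77, -4.56, -4.54 and -4.44 in unstressed and -2.35, -0.052, -2.47 and -3.62 in stressed wounds at day 14. All stressed arrays lay above all unstressed ones, with replicate 2 highest. It rose by 2.45 (SE 0.53, adjusted p = 0.0128), by 3.46 within the low Xist and 1.44 within the high Xist arrays. It did not pass with only the high Xist arrays at day 14.

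Mmp3, stromelysin-1, which cleaves proteoglycans and activates other proMMPs, gave -2.59, -2.85, -4.31 and -3.38 in unstressed and -1.18, 0.045, -0.95 and 0.0091 in stressed wounds. The groups did not overlap. The difference of 2.76 (SE 0.38, adjusted p = 0.00113) also passed with the 8 day 14 arrays alone (adjusted p = 0.0451) and after quantile normalization (adjusted p = 0.00909).

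Mmp14, the membrane-anchored collagenase that activates proMMP-2 at the cell surface, was at -2.29, -2.11, -3.08 and -4.35 without and 0.81, 0.80, -1.10 and -0.82 with load. Within the stressed group the low Xist arrays were the higher pair. It rose by 2.88 (SE 0.53, adjusted p = 0.00575), and its other 2 probe sets rose by 1.64 and 1.41. Mmp2, the gelatinase that Mmp14 activates, gave -0.72, -0.82, -2.27 and -1.01 without and -0.0019, 0.48, -0.026 and 0.023 with load. The groups did not overlap, and 3 of the 4 stressed arrays lay within 0.1 of each other. Mmp2 rose by 1.32 (SE 0.27, adjusted p = 0.0105), and its other probe set by 1.25.

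Mmp9, the second gelatinase, was spread by the class of the array, at -2.28, -2.38, -2.36 and -2.16 without and -0.75, 0.084, -2.24 and -2.10 with load. On this, its more variable probe set, the stressed high Xist arrays lay beside the unstressed ones, and only the stressed low Xist arrays stood above them. Its difference of 1.04 (SE 0.56) did not pass (adjusted p = 0.282), with 1.998 in the low and 0.087 in the high Xist arrays. On its other probe set the values were -1.59, -1.42, -1.71 and -1.98 without and -0.17, 0.0052, -1.26 and -0.84 with load, where every stressed array lay above every unstressed one. That difference was 1.11 (SE 0.35, adjusted p = 0.0689; 0.0427 with the replicate block), with 1.42 in the low and 0.80 in the high Xist arrays.

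Mmp11, stromelysin-3, rose by 2.70 (SE 0.71, adjusted p = 0.0339), with overlapping groups: unstressed arrays gave -3.97, -3.37, -4.17 and -0.46 and stressed arrays 1.10, 0.33, -0.56 and -2.02. Unstressed replicate 4 stood far above the other 3 of its group. With the replicate number as a block, which pairs the day 14 arrays, its adjusted p was 0.0919, and the difference was 4.38 in the low and 1.03 in the high Xist arrays. Mmp23, a membrane-associated member without the usual hemopexin domain, gave -1.41, -1.55, -2.94 and -2.14 without and -0.097, 0.28, -0.98 and -0.48 with load, which do not overlap. It rose by 1.69 (SE 0.32, adjusted p = 0.00617), and by 1.85 with its other probe set. Mmp19 rose by 0.95 (SE 0.27, adjusted p = 0.0484) with overlapping groups, and by 0.85 with its second probe set. The other 8 Mmp genes (Mmp7, Mmp8, Mmp9, Mmp10, Mmp16, Mmp17, Mmp20 and Mmp24) did not pass in any probe set, although with the Xist class as a block 1 probe set of Mmp9 and 2 of Mmp16 did. Outside the members, the collagenase genes Mmp1a and Mmp1b of the chromosome 9 run differed by 0.07 and 0.15 and did not pass.

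**Figure D2:**
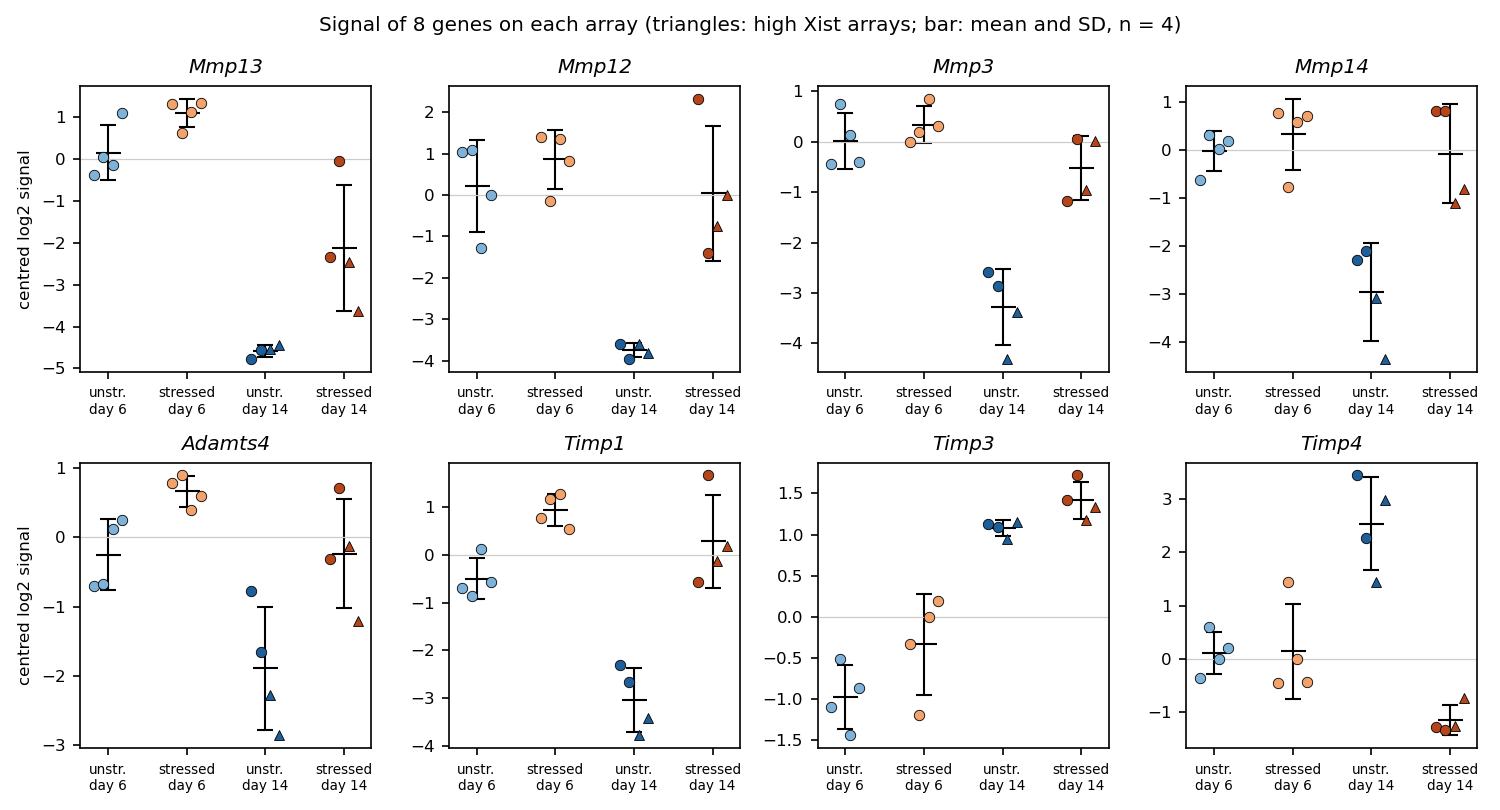
Centred log2 signal of 8 genes on each of the 16 arrays. Circles are low Xist and triangles high Xist arrays, and the bars give the mean and SD of 4 arrays. Stressed day 14 arrays lie above unstressed day 14 arrays for Mmp13, Mmp12, Mmp3, Mmp14 and Timp1 and below them for Timp4.

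Among the ADAMTS proteases, 6 of 28 probe sets rose with load at day 14 and none fell. Adamts4, a hyalectanase known as an aggrecanase, gave -1.20, -1.72, -2.43 and -2.22 without and 0.12, 0.97, -0.23 and -0.78 with load on the probe set that rose most. These groups did not overlap, and the difference was 1.91 (SE 0.33, adjusted p = 0.00417). On its more variable probe set the values were -0.77, -1.65, -2.28 and -2.85 without and -0.32, 0.70, -0.12 and -1.21 with load. There the groups overlapped, because unstressed replicate 1 lay above stressed replicate 4, and the difference was 1.65 (SE 0.42, adjusted p = 0.027).

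Adamts15, another hyalectanase, rose by 1.43 (SE 0.33, adjusted p = 0.0191), by 0.57 in the low and 2.28 in the high Xist arrays. It did not pass with only the low Xist arrays. Adamts10, which acts on fibrillin microfibrils, rose by 0.90 (adjusted p = 0.0364; 0.0888 with the replicate block) and by 0.50 with its other probe set.

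Adamts16 differed between its 2 probe sets. One gave -0.78, -0.44, -0.88 and -0.60 without and 1.43, 2.09, 0.41 and 0.19 with load, without overlap, and rose by 1.70 (SE 0.35, adjusted p = 0.0101). The other gave 0.11, 0.26, 1.38 and 3.57 and 0.26, 0.37, 0.62 and 1.64, with a difference of -0.61 that did not pass (adjusted p = 0.555). On that second probe set the high Xist arrays were the higher ones in both groups. The direction for Adamts16 therefore depends on the probe set.

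The other 11 Adamts genes did not pass. Over the family 21 of 28 probe sets lay above 0 and 7 below. Adamts20 had the lowest difference, -1.37, Adamts18 differed by -0.61 and 1 probe set of Adamts9 by -0.83. Each of these genes had a probe set that passed with only the low Xist arrays, and none with only the high Xist arrays at day 14. Adamts5, the second major aggrecanase, was at -1.13, -0.96, -0.097 and 0.35 without and -1.21, -0.19, -0.37 and 0.31 with load, and all 4 of its probe sets differed by 0.03 to 0.09. Adamts1, a hyalectanase first described as an inflammation-induced gene, was at 0.29, -0.28, -1.18 and -0.44 and 0.22, -0.27, -0.017 and -0.39. The groups overlapped for both genes, and the difference for Adamts1 was 0.29 (SE 0.32, adjusted p = 0.643). Adamts12 differed by 1.20 (adjusted p = 0.0822; 0.0463 with the replicate block), and Adamts6 by 0.74 (adjusted p = 0.0508).

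Of the ADAMTS-like genes, Adamtsl5 and Adamtsl4 fell. Adamtsl5 gave -0.027, -0.29, -0.58 and -0.18 without and -1.86, -1.71, -1.19 and -0.81 with load, with no overlap. It fell by 1.12 (SE 0.20, adjusted p = 0.00521). The difference was -1.63 in the low and -0.62 in the high Xist arrays, while that of its other probe set was 0.22 and did not pass. Adamtsl4, which is known from human lens disease and binds fibrillin microfibrils, gave 1.10, 0.65, 0.17 and 1.17 without and -1.33, -1.06, -0.56 and 0.58 with load. Stressed replicate 4 lay within the unstressed range, and Adamtsl4 fell by 1.36 (SE 0.34, adjusted p = 0.0248).

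The 4 inhibitors did not move together. Timp1, the inducible secreted inhibitor of most MMPs, gave -2.30, -2.66, -3.78 and -3.42 without and -0.57, 1.67, -0.13 and 0.19 with load. Every stressed array lay above every unstressed one, and within each group the values were spread over more than 1 unit. The difference was 3.33 (SE 0.41, adjusted p = 0.00048), 3.03 in the low and 3.63 in the high Xist arrays, and it passed with the 8 day 14 arrays alone (adjusted p = 0.0421).

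Timp4, an inhibitor known for its expression in heart, muscle and fat, went the other way, at 3.44, 2.27, 1.44 and 2.99 without and -1.28, -1.34, -1.25 and -0.72 with load. The groups lay more than 2 units apart. Timp4 fell by 3.68 (SE 0.42, adjusted p = 0.000239). Its difference was -4.16 in the low and -3.20 in the high Xist arrays, and its other probe set fell by 1.01 (adjusted p = 0.00427).

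Timp2, which inhibits MMPs and also takes part in the activation of proMMP-2 by Mmp14, had 6 probe sets, all with a positive difference. The most variable one gave -0.076, -0.19, -1.78 and -1.81 without and 1.83, 2.12, -0.48 and 0.46 with load, and its difference of 1.95 did not pass (adjusted p = 0.108). In both groups its low Xist arrays were the higher ones. Only 1 of the 6 probe sets passed, at -0.56, -0.61, -0.88 and -0.46 without and 0.61, 0.87, -0.42 and -0.10 with load, a rise of 0.87 (SE 0.23, adjusted p = 0.0342). With the replicate block 2 more passed, with differences of 1.27 (adjusted p = 0.0206) and 0.95 (adjusted p = 0.0154), and with the Xist class as a block the most variable one did too (adjusted p = 0.0325). Timp3, the matrix-bound inhibitor that also blocks Adamts4, Adamts5 and Adam17, was at 1.13, 1.09, 0.95 and 1.16 and 1.43, 1.72, 1.18 and 1.34. Its stressed arrays lay just above the unstressed ones without overlap, and the difference of 0.33 (SE 0.25) did not pass (adjusted p = 0.468). Its other 3 probe sets differed by -0.48 to -0.09.

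**Figure D3:**
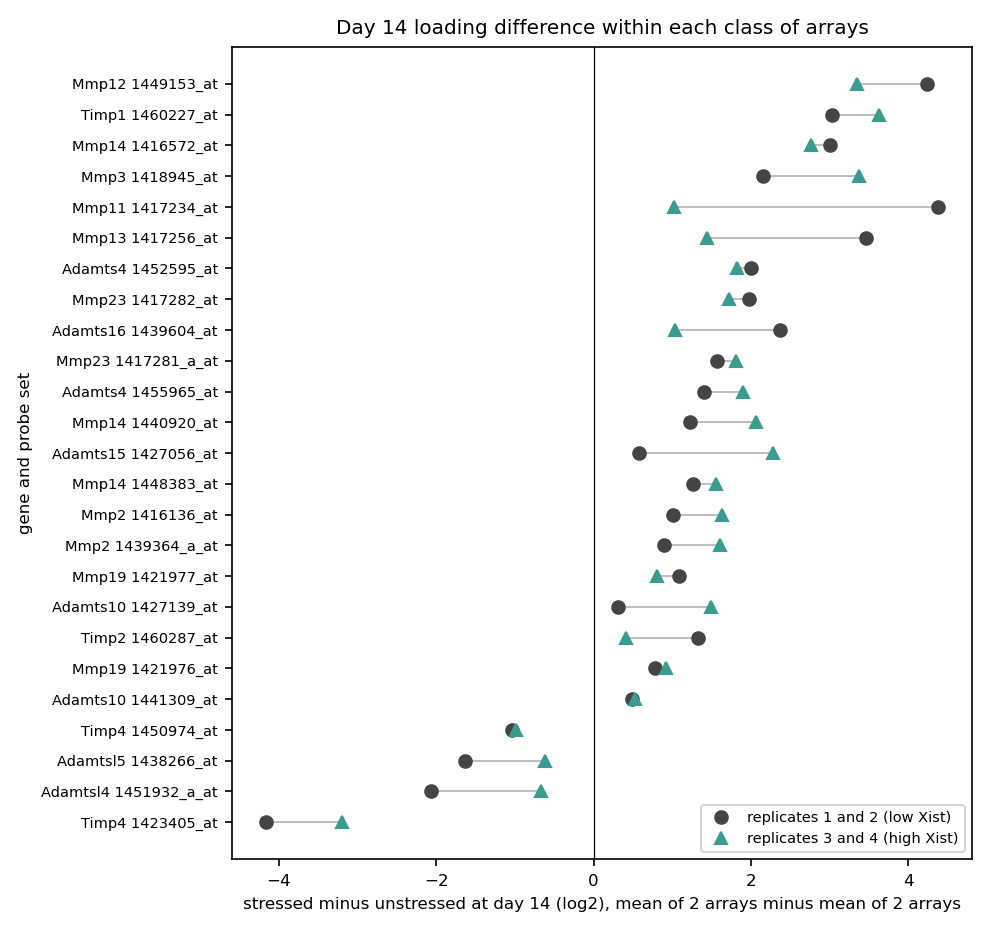
Day 14 difference between stressed and unstressed wounds for the 25 probe sets that passed, within replicates 1 and 2 (low Xist, circles) and within replicates 3 and 4 (high Xist, triangles), each a mean of 2 arrays minus a mean of 2 arrays on the log2 scale. Both classes lie on the same side of 0 for all 25, with the widest gap for Mmp11 (4.38 and 1.03). The 25 were selected by their difference over these same arrays, which made a shared side likely beforehand.

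Markers of cell types were examined on the same arrays, 1 probe set per gene, in lists chosen with earlier results of these data known. On that level 706 of 18193 genes rose with load at day 14 and 777 fell. Of 17 macrophage and monocyte markers, 13 rose at day 14 with load and none fell (median difference 1.45), and their mean level per array was -2.36 to -1.58 without and -0.97 to 0.03 with load. Of 16 fibroblast markers, 7 rose and none fell (median 1.03), with mean levels of -1.83 to -0.85 and -0.45 to 0.27. Of 11 neutrophil markers 3 rose and 1 fell, with mean levels of -0.83 to -0.36 and -0.07 to 0.70. These lists moved in the direction of Mmp12, Mmp13, Mmp3, Mmp14 and Timp1, and their part in those differences was not tested.

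In the direction of Timp4, 12 of 18 skeletal muscle markers fell and none rose, with mean levels per array of -1.33 to 0.68 without and -4.11 to -0.34 with load. The median muscle difference was -4.01 in the low Xist and -0.90 in the high Xist arrays. Of 12 adipocyte markers 9 fell and none rose (median -2.22, mean levels 0.24 to 1.47 without and -2.15 to 0.11 with load). The median adipocyte difference was -2.64 in the low Xist and -1.33 in the high Xist arrays. Timp4 fell by more than 3 units in both classes. The part of both tissues in the difference of Timp4 was not tested.

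Related genes outside the members were read the same way, with 8.15% of 18193 genes passing at day 14 on the level of 1 probe set per gene. Of 26 ADAM sheddases and related metalloproteinases, 5 rose and none fell: Adam12 by 3.86, the procollagen C-proteinase gene Bmp1 by 2.04, Adam8 and Adam19 by 1.27 each and the sheddase gene Adam17 by 0.64. Of 9 plasminogen system genes, the plasminogen activator gene Plat rose by 1.87 and the urokinase receptor gene Plaur by 0.88. Of 15 activators, inhibitors and clearance genes, Thbs2 rose by 3.27 and the protease inhibitor gene Tfpi2 by 2.41, while Spock2 fell by 0.76.

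Among 22 substrates of ADAMTS proteases and related matrix genes, 6 rose and none fell. The microfibril gene Fbn2 rose by 3.25, Col3a1 by 3.02, Col1a2 by 2.20 and the hyalectan gene Vcan by 2.15. Of 18 measured AP-1 components and other inducers of MMP genes, Ets1 rose by 1.55, Runx1 by 1.39 and the cytokine gene Osm by 0.67, and Ets2 fell by 0.63. The median of that list was -0.17.

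At day 6, after 48 hours of loading, none of the 76 probe sets passed an adjusted p of 0.05 in limma, and 20 had an unadjusted p under 0.05. Over all probe sets 0.0258% passed, and 5.67% had an unadjusted p under 0.05. Of the 76, 68 lay above 0, with a median of 0.37 against 0.00 over all probe sets. In 15 members the groups did not overlap, against 6.16% of all probe sets. After quantile normalization 10 members passed, all higher, against 1.42% of all probe sets, and the median of the 76 differences was 0.61. That scaling gives all arrays the same spread, which was narrower at day 6 than at day 14. With array weights 11 passed, all higher, against 1.69%, and the other alternatives gave none.

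The smallest adjusted p was that of Adamts6, a relative of Adamts10 linked to microfibrils. It gave -0.43, -0.17, -0.71 and -0.50 without and 0.36, 0.15, 0.69 and 1.24 with load, without overlap. The difference was 1.06 (SE 0.22, adjusted p = 0.196 in limma; 0.00837 after quantile normalization and 0.008 with array weights).

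Timp1 had the largest day 6 difference of any member. Its values were -0.69, -0.86, 0.13 and -0.56 without and 0.78, 1.17, 1.28 and 0.55 with load, which do not overlap. The difference was 1.44 (SE 0.41, adjusted p = 0.442). Mmp19 differed by 1.14 and 0.75 in its 2 probe sets, both without overlap, and the neutrophil collagenase gene Mmp8 by 1.04 with overlap.

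Adamts4 gave -0.71, -0.67, 0.12 and 0.25 without and 0.78, 0.89, 0.39 and 0.59 with load, also without overlap, a difference of 0.91 (SE 0.42, adjusted p = 0.86). Adamts5 gave -0.00080, 0.23, -0.97 and -1.30 and 0.13, 0.47, 0.55 and 0.66, and here unstressed replicate 2 lay within the stressed range. Adamts3, a procollagen N-propeptidase, differed by 0.75 (SE 0.19, adjusted p = 0.334) without overlap. For Adamts1 the arrays read -0.080, 0.49, -0.79 and -0.40 and 0.26, -0.30, 0.80 and 0.69, which overlap widely.

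The collagenase and stromelysin genes that rose at day 14 were spread across the groups at day 6. Mmp13 gave -0.39, 0.052, -0.16 and 1.09 without and 1.31, 0.61, 1.11 and 1.34 with load, where only unstressed replicate 4 reached the stressed range. Mmp12 gave 1.04, 1.09, -1.27 and -0.0052 and 1.41, -0.13, 1.35 and 0.81, with wide overlap. Mmp3 gave -0.44, 0.75, 0.13 and -0.39 and -0.0091, 0.20, 0.85 and 0.32, and their differences were 0.94, 0.65 and 0.33 in that order.

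Mmp14 gave -0.63, 0.30, 0.026 and 0.20 without and 0.78, -0.78, 0.57 and 0.71 with load, and stressed replicate 2 was the lowest of all 8 arrays. Mmp2 gave -0.27, 0.36, -0.30 and 0.0019 and 0.57, 0.14, 0.31 and 0.46, and Mmp9 -1.48, 0.077, 1.80 and 0.14 and 0.37, -0.21, 0.56 and -0.077. For both genes the groups overlapped, and the unstressed Mmp9 values alone spanned more than 3 units.

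Timp2 gave -0.49, 0.86, -0.64 and -0.021 without and 0.51, -2.45, 0.24 and 0.86 with load, with stressed replicate 2 far below all others. That holds on this probe set: on the one that passed at day 14, stressed replicate 2 was the highest of the 8 arrays, at 0.73. The difference was -0.14 on the most variable probe set and -0.11 to 0.40 on the other 5, of which 4 were above 0. Timp4 gave -0.35, 0.60, -0.0059 and 0.20 and -0.46, 1.44, 0.0059 and -0.43, a difference of 0.028 (SE 0.42). Timp3 gave -1.09, -0.51, -1.44 and -0.86 and -0.33, -1.19, 0.0026 and 0.19, a difference of 0.64 (SE 0.25, adjusted p = 0.736), and the differences of its other probe sets were of similar size, 0.61 to 0.68. None of the macrophage, fibroblast, muscle or adipocyte markers passed at day 6. The difference was above 0 for 15 of 16 fibroblast markers (median 0.65) and for 17 of 17 macrophage and monocyte markers (median 0.36), beside 68 of 76 members (median 0.37). The part of these cells in the day 6 differences of the members was not tested. Both the muscle and the adipocyte markers had a median of -0.04. Of the related lists, only the substrate gene Comp passed, at 0.96.

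The loading effect at day 14 was then set against that at day 6 in 1 test of the difference. No member passed, against 0.00858% of all probe sets. An unadjusted p under 0.05 was found for 21 members and for 10.0% of all probe sets. The smallest adjusted p was that of Timp4, whose difference in loading effect was -3.71 (SE 0.60, adjusted p = 0.0601; 0.0369 with the replicate block and 0.0268 with the Xist class as a block). Mmp3 followed among the Mmp genes with 2.43 (SE 0.54, adjusted p = 0.162), and Mmp12, Mmp14 and Timp1 gave 3.14, 2.53 and 1.89.

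The loading effect was the lower one at day 14 in 33 of the 76 members and the higher one in 43. Besides Timp4, the lower ones included Adamtsl4 (-1.73), Adamts20 (-1.28), Adamtsl5 (-1.27), Adamts3 (-1.09) and Adamtsl3 (-1.04), and none passed. The other probe set of Adamtsl5 gave 0.13. The number of members past the threshold was 4 with the Xist class as a block (Timp4, Adamtsl3, Mmp14 and Mmp23), 10 with array weights and 17 with only the low Xist arrays, against 0.217%, 2.48% and 7.87% of all probe sets. A larger loading effect on the MMPs at day 14 than at day 6 was therefore not shown by this test.

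Change with time was tested within each condition, day 14 minus day 6. In unstressed wounds 34 of 76 members (44.7%) changed, 14 higher and 20 lower, against 40.2% of all probe sets (16.8% higher and 23.4% lower). The share is thus close to that of the whole array. The time comparison in unstressed wounds and the day 14 loading comparison share the unstressed day 14 arrays, so a low value there enters both.

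The 20 lower probe sets included 13 of the 27 Mmp probe sets. For Mmp13 the mean was 0.15 ± 0.65 at day 6 and -4.58 ± 0.14 at day 14 (SD, n = 4), a fall with a difference of -4.73 (SE 0.53, adjusted p = 1.74e-05). Falls were also called for Mmp12 (difference -3.96), Mmp3 (-3.29), Mmp11 (-2.96), Mmp14 (-2.93), Mmp9 (-2.43), Mmp23 (-1.97) and Mmp2 (-1.15). Timp1 fell by 2.55 (SE 0.41, adjusted p = 0.00028) and Adamts4 fell by 1.64 (SE 0.42, adjusted p = 0.00601). Of these genes only Mmp11 had overlapping groups. In the same comparison 15 of 17 macrophage markers fell, from mean levels per array of -0.26 to 0.56 at day 6, and 7 of 16 fibroblast markers, from -0.39 to -0.08, while 1 fibroblast marker rose. With 1 probe set per gene, 5794 of 18193 genes fell and 4211 rose. The part of these markers in the differences was not tested.

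Members that rose with time in unstressed wounds included inhibitors and ADAMTS-like genes. Timp4 rose by 2.42 (SE 0.42, adjusted p = 0.000496) and Timp3 by 2.06 (SE 0.25, adjusted p = 3.51e-05), with all 4 Timp3 probe sets higher. Beside Timp4, 3 of 12 adipocyte markers rose in this comparison and none fell (median 1.12). That count was near the share of all genes, of which 4211 of 18193 rose with 1 probe set per gene. Of 18 skeletal muscle markers 1 rose and 1 fell (median -0.05), with 8 above 0. The part of the adipocyte and muscle markers in the rise of Timp4 was not tested. Adamtsl3 gave -0.23, -0.51, -0.43 and -0.48 at day 6 and 0.85, 0.99, 0.96 and 1.27 at day 14, 2 tight groups far apart. It rose by 1.43 (SE 0.16, adjusted p = 1.78e-05), and Adamtsl4 rose by 1.24 (SE 0.34, adjusted p = 0.00904).

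Adamts20, a hyalectanase known for its role in mouse coat pigmentation, gave 0.072, -0.56, -0.89 and 0.54 at day 6 and 0.98, 1.92, 3.43 and 1.28 at day 14, without overlap. It rose by 2.11 (SE 0.63, adjusted p = 0.0148; 0.0702 with the Xist class as a block). The second probe set of Adamts16 rose by 1.54 (adjusted p = 0.0352; 0.178 with the Xist class as a block), by 0.40 against the low Xist and 2.69 against the high Xist arrays of day 14. In this comparison 10 of 13 hair follicle markers rose, against 4211 of 18193 genes with 1 probe set per gene. The markers had a median of 3.25 and mean levels per array of -1.37 to -0.08 at day 6 and 1.49 to 3.49 at day 14. Their part in these differences was not tested. After quantile normalization the split of the members was 18 higher and 14 lower against 35.3% of all probe sets, and their median moved from -0.20 to 0.09.

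In stressed wounds 16 of 76 members (21.1%) changed with time, 5 higher and 11 lower, against 45.3% of all probe sets (18.7% higher and 26.6% lower). With each array centred on its median the split was 8 higher and 10 lower against 45.5% of all probe sets, and with array weights 27 passed against 54.9%. With the Xist class as a block the balance turned, to 11 higher and 7 lower against 43.9%; day 6 holds no high Xist arrays. Mmp13 lay at a mean of 1.09 ± 0.34 at day 6 and -2.12 ± 1.50 at day 14 (SD, n = 4), with no overlap, and its fall had a difference of -3.21 (SE 0.53, adjusted p = 0.00027). In the same comparison 14 of 17 macrophage markers and 5 of 16 fibroblast markers fell, while 1 fibroblast marker rose. With 1 probe set per gene, 6241 of 18193 genes fell and 4363 rose, so the fibroblast falls were near the share of all genes. The part of these markers was not tested. Mmp12, Mmp3 and Timp1, which fell in unstressed wounds, differed by -0.82, -0.86 and -0.65 here and did not pass. Mmp14 differed by -0.40 on its most variable probe set and by -0.62 on another, which did not pass, and by -0.88 on the remaining one, which passed (adjusted p = 0.0446; 0.102 with the replicate block and 0.24 with the Xist class as a block).

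That contrast between the conditions is the same test as the difference in loading effect between days, which no member passed. Mmp23 fell by 0.97 (SE 0.32, adjusted p = 0.0213; 0.101 with the Xist class as a block), with -0.56 against the low and -1.38 against the high Xist arrays of day 14. Its other probe set differed by -0.22 and did not pass. Adamtsl5 gave 0.36, 0.62, 0.20 and 0.32 at day 6, above all its day 14 values, and fell by 1.77 (SE 0.20, adjusted p = 2.52e-05). Adamts5 on another of its probe sets gave 0.24, 0.60, 0.57 and 0.72 at day 6 and -1.50, -0.48, -0.96 and -0.15 at day 14, without overlap. It fell by 1.31 (SE 0.31, adjusted p = 0.00324), while its most variable probe set, at -0.82, did not pass (adjusted p = 0.098).

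Timp4 fell by 1.29 in stressed wounds (SE 0.42, adjusted p = 0.0222; 0.0537 with the Xist class as a block), and Adamtsl1 fell by 0.69 on the probe set that gave 0.19, 0.67, 0.53 and 0.0068 at day 6 and -0.61, -0.0068, -0.76 and -0.0087 at day 14. Of 18 skeletal muscle markers 17 fell in the same comparison, from mean levels per array of -0.03 to 0.51, and 7 of 12 adipocyte markers fell with none rising (median -1.08). Over all genes, 6241 of 18193 fell. The part of muscle and fat in the fall of Timp4 was not tested. Timp3 rose by 1.75 (SE 0.25, adjusted p = 0.00011) on its most variable probe set, and its other 3 probe sets differed by -0.13 to 0.15 and did not pass.

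The genes that rose with time in both conditions on at least 1 probe set, with no overlap in either, numbered 3. Over all probe sets 38.4% had no overlap between the days in unstressed and 39.9% in stressed wounds. Those shares take either direction and 1 condition at a time, so the count of 3 cannot be set against them. A joint share over all genes was not counted. Besides Timp3, the 3 genes were Mmp7, matrilysin, an MMP of glandular and wounded epithelia, and Adamts9, a hyalectanase. Mmp7 gave -0.041, -0.058, 0.13 and 0.038 and -0.14, 0.23, -0.038 and -0.18 at day 6 in unstressed and stressed wounds. At day 14 it gave 0.82, 0.79, 0.84 and 1.08 and 0.90, 1.07, 1.29 and 0.95. These are small spreads, and the rises were 0.87 (SE 0.12) and 1.09 (SE 0.12), with adjusted p = 8.99e-05 and 2.05e-05 in limma.

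Adamts9 gave -0.20, -0.58, -0.14 and 0.064 and -0.016, -0.13, -0.0015 and -0.21 at day 6 and 1.13, 1.21, 0.74 and 0.92 and 1.44, 1.69, 1.64 and 0.56 at day 14. It rose by 1.21 and 1.42 (SE 0.21 for both), and its other 2 probe sets differed by -0.11 and 0.23 in unstressed and by -0.17 and -0.79 in stressed wounds and did not pass. The rise of Adamts9 thus rests on 1 probe set. Mmp16, a membrane-anchored MMP, rose in stressed wounds on 1 of its 4 probe sets, from -0.00, 0.23, -0.071 and 0.18 at day 6 to 1.83, 1.32, 0.46 and 0.35 at day 14. The low Xist arrays of day 14 were the higher pair, and the difference was 0.91 (SE 0.30, adjusted p = 0.021).

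**Figure D4:**
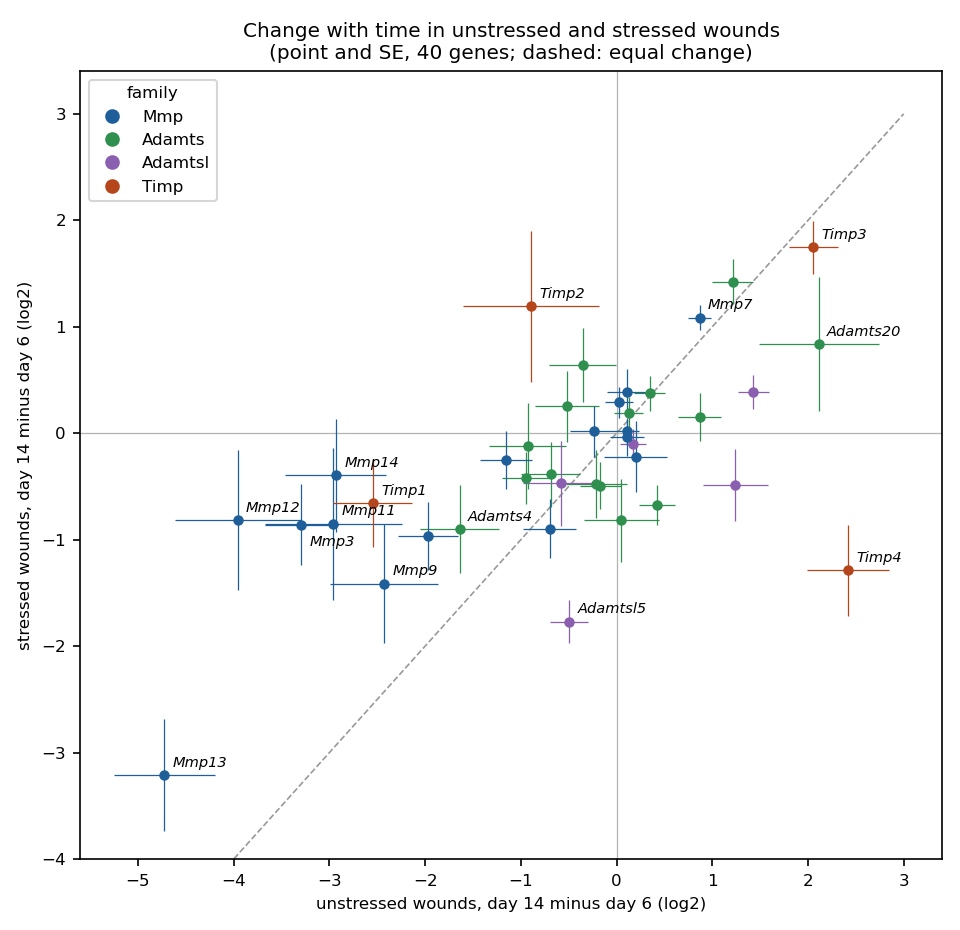
Change from day 6 to day 14 of all 40 genes in unstressed wounds (x axis) and in stressed wounds (y axis), each as a log2 difference with its SE; the dashed line marks equal change. Mmp13 is low on both axes, Timp3 high on both, and Timp4 is at 2.42 and -1.29.

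Along the chromosome 9 run, neighbouring members had different values. Mmp13, Mmp12 and Mmp3, at one end, fell with time in unstressed wounds and rose with load at day 14. Mmp10, the second stromelysin, differed by 0.27 with load at day 14 and its group means lay within -0.22 to 0.17. Its promoter carries the same letters as those of Mmp12 and Mmp3 shown above, and a role of these letters was not tested. Mmp8 differed by 0.62 with load at day 14 without overlap and did not pass (adjusted p = 0.277). Mmp20, enamelysin, an enzyme of tooth enamel, had group means of -0.02 to 0.17. Mmp7, at the other end, rose with time in both conditions, and its loading differences were -0.049 and 0.17. Because values are centred, small group differences of Mmp10 and Mmp20 do not tell a steady level from no signal.

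**Figure D5:**
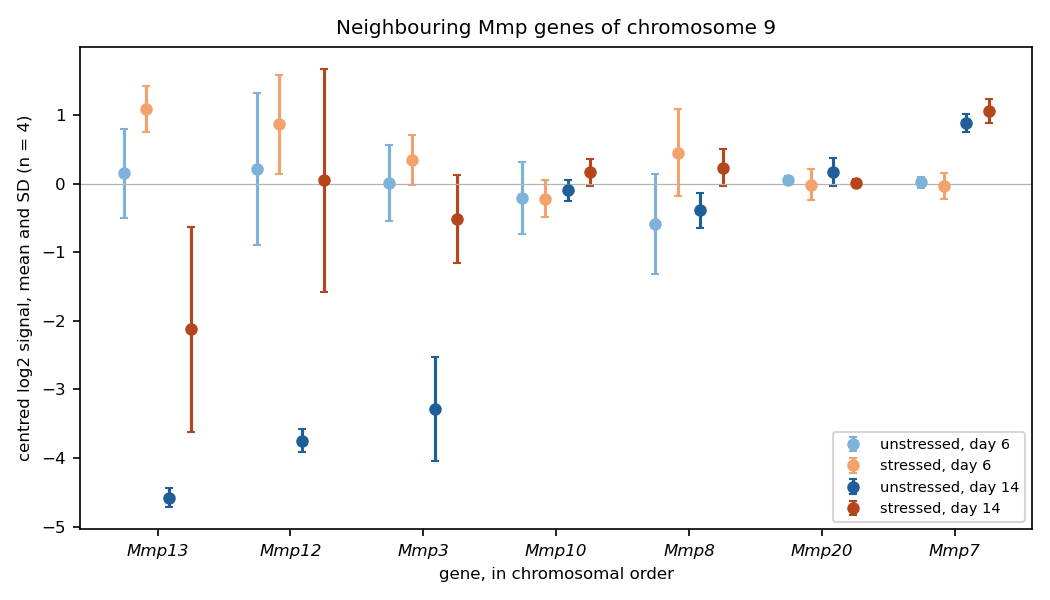
Centred log2 signal of the 7 member genes of the chromosome 9 run in their chromosomal order, as mean and SD of 4 arrays in each group. The unstressed day 14 means of Mmp13, Mmp12 and Mmp3 are -4.58, -3.75 and -3.28, and those of the other 4 genes lie between -0.39 and 0.88.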

How the data were processed

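RNA of 16 wound samples was measured on Affymetrix arrays, per the labels, with 20 oligonucleotide pairs per gene, per the series design text. Intensities were turned into expression values by the authors in GeneSpring GX 11.0, per the series design text. How background was corrected, probes summarized and arrays normalized is not given in the sources used. Deposited values are read as log2 signals centred per probe set, because they lie on both sides of 0; the reference of the centring is unknown, and only 6.27% of probe sets have a median within 0.001 of 0. A log10 scale is unlikely, since 1 probe set spans 10.1 units and a 16-bit scan covers 4.82 on that scale.

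Of 45101 probe sets in the platform's annotation, 932 had several gene symbols and 9211 none, and these were left out with 64 control rows (13 of which had a symbol). The remaining 34945 entered a model of 4 group means (lmFit, then eBayes, limma 3.58.1, R 4.3.3), in which 5 contrasts were tested two-sided with Benjamini-Hochberg adjustment over all of them at 0.05. Tables and plots used Python 3.11.15, pandas 2.3.3, numpy 2.4.6 and matplotlib 3.10.9. The code was tested on simulated data.

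The members and lists were chosen with earlier results of these data known. Members given with every array were, per comparison, the 6 largest differences each way among those past the threshold without overlap, 1 probe set per gene, and Mmp2, Mmp3, Mmp9, Mmp13, Mmp14, Timp1 to Timp4, Adamts1, Adamts4 and Adamts5. The day 6 values of Adamts6 and the values of Mmp11, Mmp19, Mmp8, the second probe set of Mmp9, the first probe set of Adamts16 and the probe set of Timp2 that passed were chosen after they were seen. Lists used 1 probe set per gene, that with the largest interquartile range. No 2 replicates of a group were alike (smallest SD of their differences 0.24). Promoters came from RefSeq (GRCm38.p6); 15 of the 40 genes had no entry in the table used.

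Same-numbered stressed and unstressed arrays of day 14 had deviations from their group means that correlated at 0.25, 0.17, 0.26 and 0.14 over all probe sets. Differently numbered arrays of the same Xist class correlated at 0.18 (stressed 1 with unstressed 2), 0.23 (2 with 1), 0.069 (3 with 4) and 0.20 (4 with 3). Pairing by number therefore cannot be told apart from a shared Xist class, and the replicate block was run only as an alternative. At day 6 the correlations of same-numbered arrays were -0.15, -0.42, -0.24 and -0.0013, and day 14 arrays did not pair with those of day 6. Alternatives were the compared groups alone, quantile normalization, centring on array medians, array weights, the Xist class as a block or 1 class alone, a replicate block, 1 probe set per gene, the more variable part of the probe sets, and each replicate left out.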

Additional observations from a re-analysis of the deposited data

Results flagged for a closer look

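Among 100 groups of 4 arrays (25 named probe sets in 4 groups), 4 held an array far from the others by Dixon's criterion; chance gives about 1 in 20, or 5 of these 100. Mmp14 at day 6 with load was -0.78 in replicate 2 against 0.57 to 0.78 in the others. Timp4 at day 14 with load was -0.72 in replicate 4 against -1.34 to -1.25. Mmp16 on the probe set described above was 0.73 in unstressed replicate 4 of day 6 against -0.38 to -0.20. Mmp2 at day 14 with load was 0.48 in replicate 2 against -0.027 to 0.023.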

How the results depend on the processing

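Of 125 values (25 named probe sets in 5 comparisons), 41 passed the threshold, and no such value changed sign under any of 26 alternatives. Several alternatives leave the difference itself unchanged: the compared groups alone, 1 probe set per gene, the more variable part of the probe sets and the replicate block. The Xist class as a block also leaves the loading differences unchanged. As the 41 were picked on these same arrays, the lack of sign changes was largely set beforehand. Among values past the threshold in neither setting, 59 of 2027 comparisons changed sign. At day 14, 25 members passed for loading, 3 with the compared groups alone, 7 after quantile normalization and 15 to 32 with 1 replicate left out (15 when stressed replicate 2 of day 14 was left out, 32 when replicate 4 was). In every one of these, 15 of the 25 passed. At day 6 none passed, against 10 after quantile normalization and 11 with array weights, and 0 with each replicate left out. For the difference in loading effect between days the count was 0, and it was 10 with array weights, 4 with the Xist class as a block, 17 with only low Xist arrays, 1 each with only high Xist arrays at day 14, 1 probe set per gene, the more variable part of the probe sets or the replicate block, and 0 to 3 with 1 replicate left out (2 when unstressed replicate 3 of day 14 was left out, 3 when stressed replicate 4 was). For time in unstressed wounds 34 passed, 20 of 40 with 1 probe set per gene, which tests fewer rows, and 30 to 39 with 1 replicate left out. For time in stressed wounds 16 passed, 27 with array weights and 12 to 21 with 1 replicate left out, of which 8 passed in every one. The cause of these changes was not tested. Apart from the results given in the report, the replicate block moved no count of members by over 1.5 times, and the natural log was not run, since it rescales every difference and its SE alike. Quantile normalization removes the wider spread of day 14 arrays by construction. The number of arrays and the centring, which hides signal over background, limit what can be read.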
